A study of Mus musculus with 840 samples.

Results

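Kit, Aldh1a3, Plet1, Cnmd, Cytip and Cpe are 6 of the 39154 genes counted in single mammary cells that were sorted while Notch signaling drove basal cells (BCs) towards a luminal fate. They were chosen by name as a set of luminal progenitor markers, with earlier results of these data known, and each was found by its Ensembl identifier. The paper reports Plet1, Kit and Aldh1a3 as enriched in its hormone receptor-negative luminal cluster of these cells and reduced in INT2, an intermediate cluster. Its clusters were drawn from the transcripts and are not the sorting gates used here. All mice carried Rosa26-N1ICD-IRES-nGFP, which makes the active intracellular part of Notch1 together with nuclear GFP once Cre has acted, and either SMACreERT2 or K5CreERT2, both active in BCs. Tamoxifen was given at postnatal day 21, and the glands were taken 1, 3, 4 or 6 weeks later. The GFP+ cells had recombined, while the GFP- cells came from the same glands and had not. Living cells without CD45, Ter119 or CD31 were index-sorted on EpCAM and CD49f into a basal, an intermediate and a luminal gate and sequenced with Smart-seq2, which reads whole transcripts and carries no molecular identifiers.

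Of 744 cells, a further 96 being a second run of the 6-week plate, 68.7% passed the filters on quality, Epcam and Dcpp1. They lay on 8 plates of 3 sequencing batches, each plate with its own 1 or 2 mice: plate 1 (SMACre, 1 week), plates 2, 3 and E (SMACre, 3 weeks), plate 4 (SMACre, 4 weeks), plate 5 (SMACre, 6 weeks) and plates G and L (K5Cre, 3 weeks). The sample names of plate L give 6 weeks, against 3 in its labels, which were followed here. The cells kept were 100 basal GFP+, 17 basal GFP-, 12 intermediate GFP-, 120 luminal GFP+ and 39 luminal GFP- cells, and the remaining 43.6% were intermediate GFP+ cells (3 to 63 on a plate). Depth was 103081 to 3363298 reads per cell, with a median of 1499629 in batch 3 (plates E, G and L) against 402767 and 397250 in the others, and 80% of the index pairs that barcode the cells were used in more than 1 batch. Cells of a group were summed within each plate where at least 3 were present, and levels are given as CPM, the reads of a gene scaled to the total of that sum. The plate was the replicate and groups were compared within plates, so p-values measure how far group differences varied from plate to plate.

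Kit is a receptor tyrosine kinase for the ligand stem cell factor, and in the mammary gland it is known from luminal progenitors of the hormone receptor-negative lineage. Aldh1a3 is a retinaldehyde dehydrogenase that makes retinoic acid and is also a known luminal progenitor gene. Plet1 encodes a surface glycoprotein of epithelial progenitors, Cnmd encodes chondromodulin, a transmembrane glycoprotein best known from cartilage, Cytip binds cytohesins, which activate ARF GTPases, and Cpe encodes carboxypeptidase E, which trims peptide prohormones. Hormone receptor-positive (HRpos) luminal cells carry estrogen and progesterone receptors (Esr1, Pgr), and hormone receptor-negative (HRneg) cells express the transcription factor Elf5.

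On GRCm38, Kit lies at chr5:75574916-75656722 on the plus strand and Aldh1a3 at chr7:66390890-66427517 on the minus strand. Plet1 lies at chr9:50494525-50505482 (plus), Cnmd at chr14:79637690-79662170 (minus), Cytip at chr2:58129137-58195532 (minus) and Cpe at chr8:64592542-64693054 (minus). Reads of Plet1 and of its antisense partner Plet1os cannot be told apart where they overlap if strand was not used in the counting. Promoter sequence from RefSeq (GRCm38.p6) was held for 4 of the 6 genes, and the bases before the annotated start are shown for 3 of them. The 3 differ widely in CpG content although all 3 had their highest mean levels in the luminal gate. Capitals mark CpG dinucleotides.
Kit, chr5:75574737-75574915, plus strand: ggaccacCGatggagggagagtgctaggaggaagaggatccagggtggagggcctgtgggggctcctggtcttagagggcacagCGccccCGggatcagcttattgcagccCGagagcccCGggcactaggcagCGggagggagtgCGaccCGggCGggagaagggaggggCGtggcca
Plet1, chr9:50494275-50494524, plus strand: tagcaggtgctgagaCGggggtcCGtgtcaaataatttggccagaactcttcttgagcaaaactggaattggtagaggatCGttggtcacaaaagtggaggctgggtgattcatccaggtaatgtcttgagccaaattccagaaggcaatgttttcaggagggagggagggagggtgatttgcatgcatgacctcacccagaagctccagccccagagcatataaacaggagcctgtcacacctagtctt
Cnmd, chr14:79662184-79662433, minus strand: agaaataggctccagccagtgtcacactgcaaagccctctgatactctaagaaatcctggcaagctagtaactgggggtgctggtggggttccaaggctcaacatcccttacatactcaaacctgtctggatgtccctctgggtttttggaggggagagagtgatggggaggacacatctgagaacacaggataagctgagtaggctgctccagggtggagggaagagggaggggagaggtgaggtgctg
The stretch of Kit shown is shorter than 250 bases and holds 10 CpG. Within the whole 250 bases before the start, Kit had 17 CpG, Plet1 3, Cytip 5 and Cnmd 0, where the median of all promoters was 6 and 76.48% of promoters had fewer than Kit. The core letters of the RBPJ motif, TGGGAA, were searched on both strands of the window from 250 bases before to 50 after the start. They occurred in none of the 4 windows, and in 25.56% of 32851 promoters. The ETS core AGGAAG was in the Kit and the Cytip window and in 35.35% of all, and the TATA box letters TATAAA were in the Plet1 window and in 13.62% of all.

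By the mean of plates, Kit, Aldh1a3, Cnmd and Cytip were highest in the luminal gate, whether or not the cells carried GFP. They were close to 0 in basal GFP+ cells, while Kit reached 36.1 CPM in a basal GFP- sum. Cnmd did not follow this on every plate, with 0.106 CPM in luminal GFP+ cells of plate L and 0.961 to 6.23 CPM in basal GFP- sums. Plet1 also had its highest means in luminal cells but was read in every gate. Cpe was not tied to the luminal gate on all plates. Its highest levels were in intermediate cells of batch 3, though basal sums and a luminal GFP- sum of that batch held it as well. In batches 1 and 2 together it was detected in 15.6% of luminal, 2.56% of intermediate and 4.49% of basal GFP+ cells (thinned to equal depth). The luminal share came mostly from plate 5, with 11 of 37 cells, where no basal or intermediate cells were kept. Plate 4 had 5 of 51 luminal GFP+ cells with Cpe, and plates 1 and 3 had 0. Basal GFP+ shares on SMACre plates were 0 to 6%. As a check of the gates, Elf5 was at 81.4 ± 16.3 CPM in luminal GFP+ sums (SD, n = 6 plates) and 0.608 ± 0.524 CPM in basal GFP+ sums (n = 5), and the basal keratin Krt14 was at 153.1 ± 184.8 and 3679 ± 1285 CPM. On plates 1, 2, 3 and 4 the labels, which were followed here, and a listing of the sorted cells in the supplement give the intermediate and luminal GFP+ cell numbers the other way round. On those plates Elf5 was at 17.4 to 102.8 CPM in the cells labelled luminal GFP+ and at 0 to 0.458 CPM in those labelled intermediate GFP+.

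Kit in luminal GFP+ cells was at 253.8 CPM on plate 1, 818 on plate 3, 751 on plate 4, 1801 on plate 5, 297.9 on plate G and 296.4 on plate L. In basal GFP+ cells it was at 11.6 CPM on plate 1, 0.309 on plate 3, 0.608 on plate 4 and 0 on plates G and L. The 2 groups did not overlap, and the lowest luminal plate was far above the highest basal plate. Intermediate GFP+ cells were near the basal level, at 0 to 19.9 CPM on 7 plates with a mean of 5.16 ± 7.28. Luminal GFP- cells were at 679 CPM on plate 1, 1108 on plate 3, 2013 on plate 4, 1103 on plate 5, 84.1 on plate E, 153.1 on plate G and 164.6 on plate L. From the highest, the order of mean Kit levels was luminal GFP-, luminal GFP+, basal GFP-, intermediate GFP+, basal GFP+ and intermediate GFP-; the luminal groups overlapped each other, all other neighbours overlapped too, and only the step from the luminal to the other gates had no overlap. In the 12 intermediate GFP- cells no read of Kit was found, which allows a share of up to 26.5% of such cells (exact binomial 95% interval, covering counting error only).

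Aldh1a3 in luminal GFP+ cells was at 152.6 CPM on plate 1, 697 on plate 3, 353 on plate 4, 444 on plate 5, 1314 on plate G and 2474 on plate L. Basal GFP+ sums reached no more than 1.61 CPM. In luminal GFP- cells the gene ranged from 49.6 CPM on plate 4 to 2757 on plate L, so both luminal groups spanned the same range. The intermediate GFP+ sums were at 0 on plates 1, 2 and 4, at 9.04 on plate G, 18.8 on plate 3, 82.03 on plate E and 107.7 on plate L. They lay below every luminal GFP+ sum and overlapped the basal sums. The order of the means was luminal GFP+, luminal GFP-, intermediate GFP+, basal GFP-, intermediate GFP- and basal GFP+. All neighbours in this order overlapped, luminal GFP- and intermediate GFP+ cells through the luminal GFP- values of plates 4 and G (49.6 and 105.1 CPM).

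The highest plate differed between the 2 genes. Kit was highest on the 6-week plate 5 in luminal GFP+ cells and on plate 4 in luminal GFP- cells, while Aldh1a3 was highest on plate L in both. In luminal GFP- cells Kit was at 679 to 2013 CPM on the plates of batches 1 and 2 and at 84.1 to 164.6 CPM on those of batch 3, without overlap. The luminal GFP- cells of batches 1 and 2 were annotated as estrogen receptor-negative and those of batch 3 were not. Cells with 50 CPM or more of Esr1 or Pgr made up 0 to 42.9% of them on the plates of batches 1 and 2, and 40% on plate E, 83.3% on plate G and 50% on plate L. Without these cells Kit was at 1073 to 2013 CPM in batches 1 and 2, and at 135.5 CPM on plate E (3 cells left), 1347 on plate G (1 cell left) and 270.98 on plate L (3 cells left), so that the batches overlapped through 1 cell. At 3 weeks with SMACre, the luminal GFP- cells were at 1108 CPM of Kit on plate 3 (batch 2, 3 cells) and at 84.1 CPM on plate E (batch 3, 5 cells). Batch, read length, this annotation and, for plates G and L, the Cre line change together here and cannot be told apart. Each chase other than 3 weeks had 1 plate, so levels along the chase have no replicate.

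**Figure D1:**
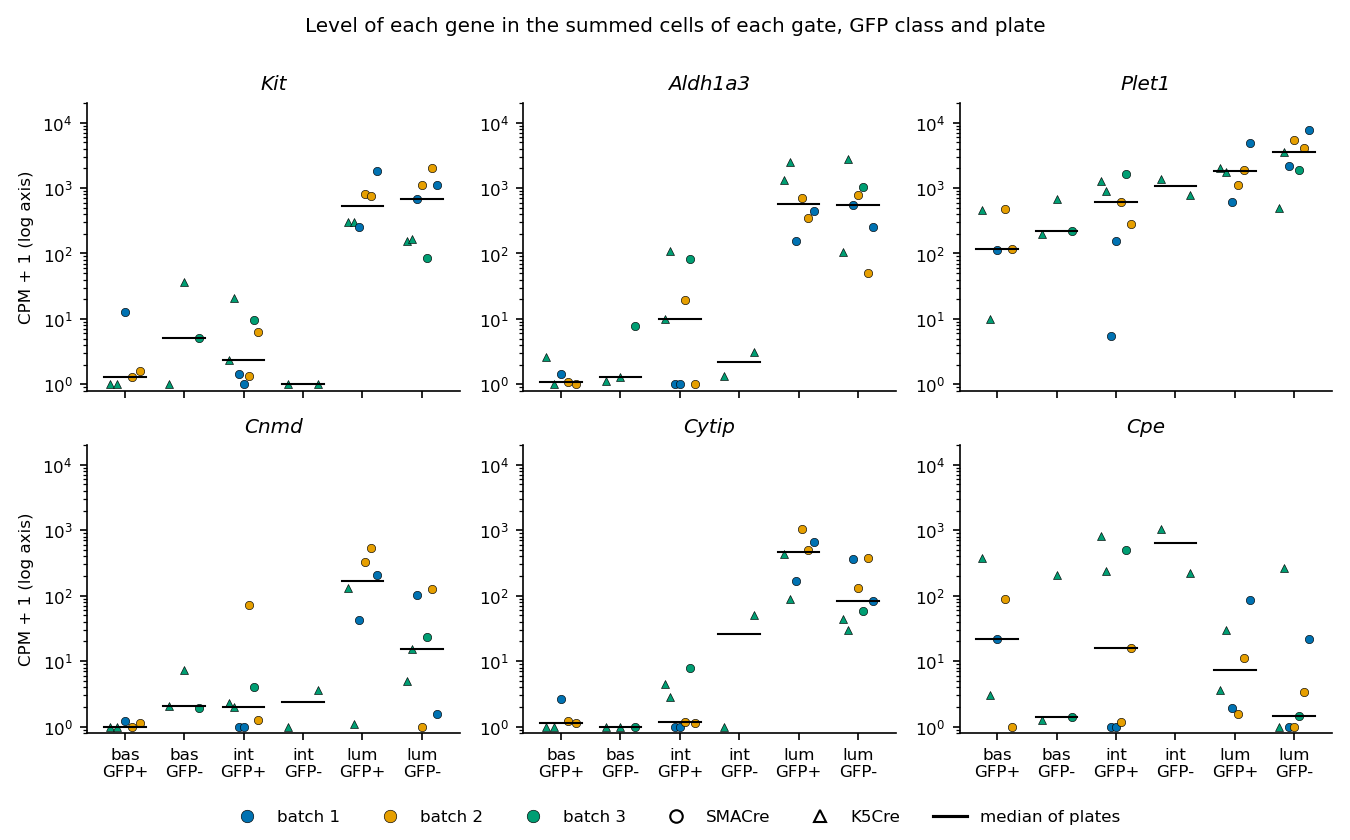
Level of each of the 6 genes in every plate sum, as CPM + 1 on a logarithmic vertical axis, by gate and GFP state on the horizontal axis; each point is 1 plate, with its color giving the batch and its shape the Cre line, and horizontal bars are medians of plates. The medians of Kit, Aldh1a3 and Cytip in both luminal groups stand above those of the other groups, Plet1 is spread over all groups, and Cpe is highest in intermediate sums of batch 3.

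Cytip in luminal GFP+ cells was at 165.99 CPM on plate 1, 1056 on plate 3, 505.1 on plate 4, 662 on plate 5, 433 on plate G and 88.9 on plate L. It was at most 1.62 CPM in basal GFP+ and 6.95 in intermediate GFP+ sums, and no read was found in basal GFP- cells. Luminal GFP- sums ran from 28.6 to 382 CPM, overlapping the luminal GFP+ range. An intermediate GFP- value of 50.3 CPM on plate L came from 1 cell.

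Cnmd had the widest range, as a fold, over luminal GFP+ plates of the 6 genes. Its luminal GFP+ sums were 40.9 CPM on plate 1, 328 on plate 3, 529 on plate 4, 203.6 on plate 5, 130.7 on plate G and 0.106 on plate L. The luminal GFP- sums were 0 on plate 3, 0.587 on plate 5, 3.94 on plate G, 14.5 on plate L, 22.2 on plate E, 101.4 on plate 1 and 126.1 on plate 4. The GFP- sums came mostly from 1 cell each, which held 71.4% of the Cnmd reads on plate G and 99.3 to 100% on the other plates with a read. On all reads Cnmd was found in 10 of 39 luminal GFP- cells, and in thinned cells in 0 or 1 cell of each plate, whereas 32 of 51 thinned luminal GFP+ cells of plate 4 had it. Basal GFP+ sums did not exceed 0.232 CPM, and the highest intermediate GFP+ sum, 70.04 CPM on plate 3, came almost wholly from 1 cell.

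Plet1 in luminal GFP+ cells ranged from 612 to 4833 CPM (median 1829, n = 6 plates) and in luminal GFP- cells from 488 to 7761 CPM (median 3532, n = 7). Intermediate GFP+ sums ran from 4.58 to 1613 CPM (median 617, n = 7) and basal GFP+ sums from 9.05 to 483 CPM (median 115.2, n = 5). The ranges overlapped between luminal and intermediate sums and between intermediate and basal sums. The lowest luminal GFP+ sum lay above the highest basal GFP+ sum. Basal GFP- sums, at 194.1 to 670 CPM, overlapped both luminal groups, and intermediate GFP- sums were at 779 and 1364 CPM.

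Levels of different genes were compared per kilobase of exon (RPKM). In luminal GFP+ sums Plet1 was the highest, at 1045 ± 754 RPKM (SD, n = 6), followed by Aldh1a3 at 196.2 ± 187.7, Cnmd at 111.5 ± 107.1, Kit at 78.9 ± 66.4, Cytip at 71.9 ± 52.2 and Cpe at 8.18 ± 12.6. From Aldh1a3 to Cytip the plates overlapped from gene to gene.

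The first comparison asked which genes set GFP+ cells of the luminal gate apart from GFP+ cells of the basal gate. The luminal GFP+ sums came from 1, 3, 4 and 6 weeks of chase. The paper describes mutant luminal cells as seemingly pre-luminal at 1, 3 and 4 weeks, so this gate is not the end of the conversion. Summed counts were fitted with edgeR's quasi-likelihood test with the plate as a block, over 19768 genes and 29 sums; all 6 genes passed its filter on low counts, Kit, Aldh1a3, Cnmd and Cytip through their luminal sums. In the fit 0.744% of the genes passed an adjusted p of 0.05: 66 (0.334%) were higher in luminal cells and 81 (0.41%) lower. Of the 6 genes, 4 passed, all higher. Because the 6 were chosen with earlier results of these data known, this count is no independent support. Aldh1a3 rose by 10.81 on the log2 scale (SE 1.47, edgeR adjusted p = 0.000759), and Cytip by 10.52 (SE 1.73, edgeR adjusted p = 0.00387). Kit rose by 8.96 (SE 1.72, edgeR adjusted p = 0.0139) and Cnmd by 11.47 (SE 2.32, edgeR adjusted p = 0.0187). The sizes of these folds rest on basal sums of a few reads. Plet1, at 2.66 (SE 0.86, edgeR adjusted p = 0.180), and Cpe, at -4.89 (SE 2.34, edgeR adjusted p = 0.453), did not pass. Both passed with DESeq2 (adjusted p = 0.0113 and 0.0303) and with edgeR without its filter on low counts (adjusted p = 3.76e-18 and 1.4e-07). The unfiltered fit keeps every gene with 1 read or more. Its p-values for these 2 genes lay far below those of the other fits, and the reason was not tested. The call of Kit was lost without plate 3 (adjusted p = 0.0708) or plate 4 (0.0666), and that of Cnmd without plate 4 (0.0729) or plate G (0.0649). Within batch 3 alone Kit was higher by 16.72 (adjusted p = 0.136) and within batches 1 and 2 by 7.49 (adjusted p = 0.0908), while Aldh1a3 was higher by 10.36 (adjusted p = 0.136) and 11.12 (adjusted p = 0.0386).

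Against intermediate GFP+ cells, luminal GFP+ cells had 31 genes (0.157%) past the threshold, 9 of them higher (0.0455%) and 22 lower (0.111%), and 2 of the 6 genes were among the 9. Aldh1a3 rose by 6.54 (SE 1.15, edgeR adjusted p = 0.0136) and Cytip by 7.66 (SE 1.46, edgeR adjusted p = 0.0308). Kit was 6.61 higher (SE 1.47) and missed the threshold (edgeR adjusted p = 0.0662), although no intermediate sum reached its luminal range. Without plate 1 the adjusted p of Kit was 0.0494, and without plate L it was 0.00845. Kit also passed with DESeq2, with limma, without the filter on low counts, in thinned cells and without the plate block, where its adjusted p was 1.35e-06, 0.00169, 1.04e-24, 0.00267 and 0.0245. Aldh1a3 lost its call without plate 3 (0.0720) or plate G (0.0641), and Cytip without plate 3 (0.177), plate 4 (0.0787) or plate 5 (0.0531). With the compared groups alone both calls were lost (adjusted p = 0.156 for Aldh1a3 and 0.113 for Cytip), and that of Aldh1a3 also without the plate block (0.136) and with Cre line and chase as units (0.0771). Within batch 3 the adjusted p was 0.511 for Kit, 0.328 for Aldh1a3 and 0.519 for Cytip, and within batches 1 and 2 it was 0.0649, 0.140 and 0.00290, all with higher luminal levels. The differences of Cnmd (5.37, SE 1.75), Plet1 (1.27, SE 0.83) and Cpe (-4.06, SE 2.47) did not pass (edgeR adjusted p = 0.295, 0.711 and 0.675). All 3 passed without the filter on low counts (edgeR adjusted p = 8.03e-06, 0.000619 and 0.00036), and Cnmd with DESeq2 (adjusted p = 0.00366).

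Between intermediate and basal GFP+ cells 0 genes passed (0%) with edgeR, 619 had an unadjusted p under 0.05, and DESeq2 and limma called 415 and 9. None of the 6 genes passed with edgeR, whose differences were 4.27 for Aldh1a3 (SE 1.23), 6.11 for Cnmd (SE 2.11), 2.86 for Cytip (SE 1.5), 2.35 for Kit (SE 1.71), 1.39 for Plet1 (SE 0.87) and -0.84 for Cpe (SE 2.39). With DESeq2, Aldh1a3 (adjusted p = 0.00953) and Cnmd (adjusted p = 0.00238) passed. With edgeR without the filter on low counts, Aldh1a3 (adjusted p = 9.45e-12), Cnmd (adjusted p = 0.000103), Plet1 (adjusted p = 0.00043) and Cytip (adjusted p = 0.0453) passed. The Cnmd difference included the single cell of plate 3.

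Luminal GFP+ cells and luminal GFP- cells were compared to ask whether GFP+ cells in the luminal gate matched the GFP- luminal cells of the same glands. In all, 7 genes (0.0354%) passed, each higher in GFP+ cells, and none of the 6 was among them. The median difference of all genes was 0.39 on the log2 scale. Kit differed by 0.13 (SE 0.99), Aldh1a3 by 1.07 (SE 0.91), Cytip by 2.14 (SE 1.07), Cnmd by 2.84 (SE 1.56), Plet1 by -0.93 (SE 0.72) and Cpe by 1.48 (SE 2.02), with edgeR adjusted p from 0.722 to 1. Without the filter on low counts edgeR called Plet1 lower (-0.91, adjusted p = 0.0229) and Cytip higher (2.17, adjusted p = 0.0144). With SEs of this size, missing the threshold does not show that the groups were alike.

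**Figure D2:**
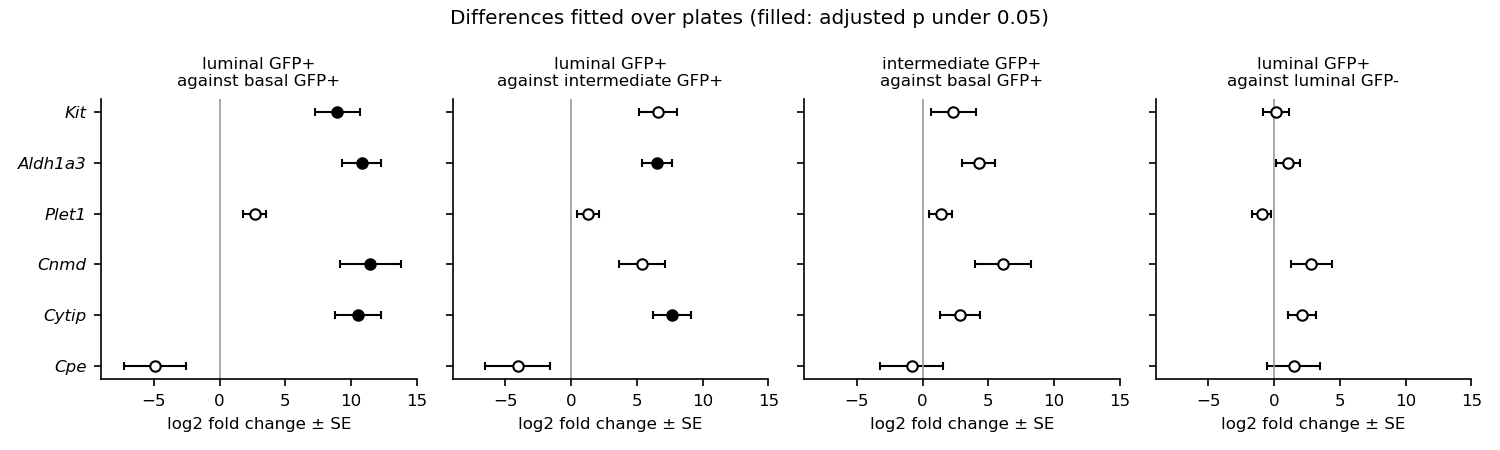
Fitted log2 difference of each of the 6 genes in the 4 comparisons, with bars of 1 SE; filled points passed the adjusted p of 0.05. Kit, Aldh1a3, Cnmd and Cytip passed against basal GFP+ cells, Aldh1a3 and Cytip passed against intermediate GFP+ cells, and no gene passed in the other 2 comparisons.

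Because depth differed between batches, detection was read after each cell was thinned to 100000 reads, 1 read or more counting as detected. Kit was detected in 86.7% of 120 luminal GFP+ cells (exact binomial 95% interval 79.3 to 92.2%) and in 24 of 39 luminal GFP- cells (61.5%, 44.6 to 76.6%). It was found in 19 intermediate GFP+ cells (8.52%, 5.21 to 12.99%) and in 12 of 100 basal GFP+ cells (6.36 to 20.02%), and shares at or below that of basal cells were read as background. On all reads Kit was found in 90% of luminal GFP+, 25 of 39 luminal GFP-, 24 intermediate GFP+ and 27 of 100 basal GFP+ cells. Pooled over plates, the share of intermediate cells with Kit was not above that of basal cells. By plate it was higher on 3 of 5. On the K5Cre plates of batch 3 it was 4.76 to 6.56% in intermediate GFP+ cells and 0 in the few basal GFP+ cells. The pooled shares therefore do not show that Kit in intermediate cells was background. On all reads, 25 of the 27 basal cells with Kit had 1 to 3 reads of it, against 6 of the 24 intermediate cells, and 10 intermediate (4.48%) and 2 basal cells (2%) had 50 CPM or more. Most basal GFP+ cells came from the shallower batches 1 and 2 and most intermediate GFP+ cells from batch 3. Numbers of reads therefore cannot be compared between these gates. The intermediate cells with 50 CPM or more came from plates E and L of batch 3, apart from a cell of plate 4. Aldh1a3 was detected in 89 of 120 luminal GFP+ cells (74.2%), 20 of 39 luminal GFP- cells (51.3%), 26 intermediate GFP+ cells (11.7%) and 5 of 100 basal GFP+ cells.

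Over plates, Kit was detected in 70.6% of luminal and 7.60% of basal GFP+ cells on average, a difference of 62.9 ± 30.7 percentage points (SD of 5 plates), higher in 5 of 5. The exact sign-flip permutation test gave p = 0.0625 (two-sided), the smallest that 5 plates allow, and 0.214 after adjustment over 24 tests. For Aldh1a3 the difference was 69.4 ± 23.9 points with the same p. Against luminal GFP- cells the difference was 10.8 ± 32.3 points for Kit (4 of 6 plates, exact permutation p = 0.4375, adjusted 0.553), 27.7 ± 41.8 for Aldh1a3 (5 of 6, exact permutation p = 0.1875, adjusted 0.321) and 25.4 ± 28.6 for Cnmd (4 of 6, exact permutation p = 0.125, adjusted 0.273). None of these 3 differences was larger than the spread between plates.

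Most luminal GFP+ cells had both Kit and Aldh1a3: 86 of 120 cells (71.7%, 62.7 to 79.5%), with 18 cells with Kit alone, 3 with Aldh1a3 alone and 13 with neither. By plate the share with both was 25% on plate 1, 90.9% on plate 3, 66.7% on plate 4, 83.8% on plate 5, 66.7% on plate G and 80% on plate L, so that plate 1 stood below the rest. In luminal GFP- cells it was 17 of 39 (43.6%, 27.8 to 60.4%), in intermediate GFP+ cells 3.14% (7 cells), in basal GFP+ cells 1 of 100 and in intermediate GFP- cells 0 of 12. Aldh1a3 was found in 82.7% of luminal GFP+ cells with Kit and in 18.8% of those without, and in luminal GFP- cells in 70.8% and 20%. Cytip went with Kit in the same way, in 87.5% of luminal GFP+ cells with Kit and 18.8% of those without. Kit, Aldh1a3, Cnmd and Cytip were all found in 45 of 120 luminal GFP+ cells and in 3 of 39 luminal GFP- cells.

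The mean share with both genes was 65.8% in luminal against 0.4% in basal GFP+ cells and against 2.84% in intermediate GFP+ cells (5 of 5 plates each, exact permutation p = 0.0625, the smallest possible, adjusted 0.125 over 4 tests). Intermediate and basal GFP+ cells differed by 2.44 ± 3.88 points (exact permutation p = 0.375). Luminal GFP+ and GFP- cells had 68.8% and 46.03%, a difference of 22.8 ± 32.8 points in 5 of 6 plates (exact permutation p = 0.1875 where 0.03125 is the smallest possible, adjusted 0.25).

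**Figure D3:**
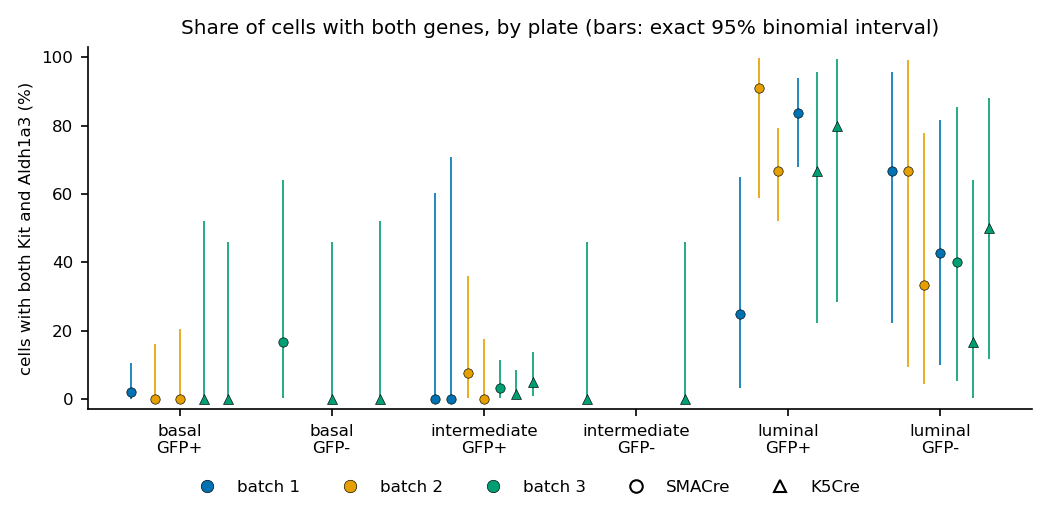
Percent of cells of each plate in which both Kit and Aldh1a3 were detected after thinning to 100000 reads, by gate and GFP state; each point is 1 plate with its exact 95% binomial interval, its color giving the batch and its shape the Cre line. The luminal GFP+ plates lie between 25 and 90.9%, and the basal and intermediate GFP+ plates do not exceed 7.69%.

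**Figure D4:**
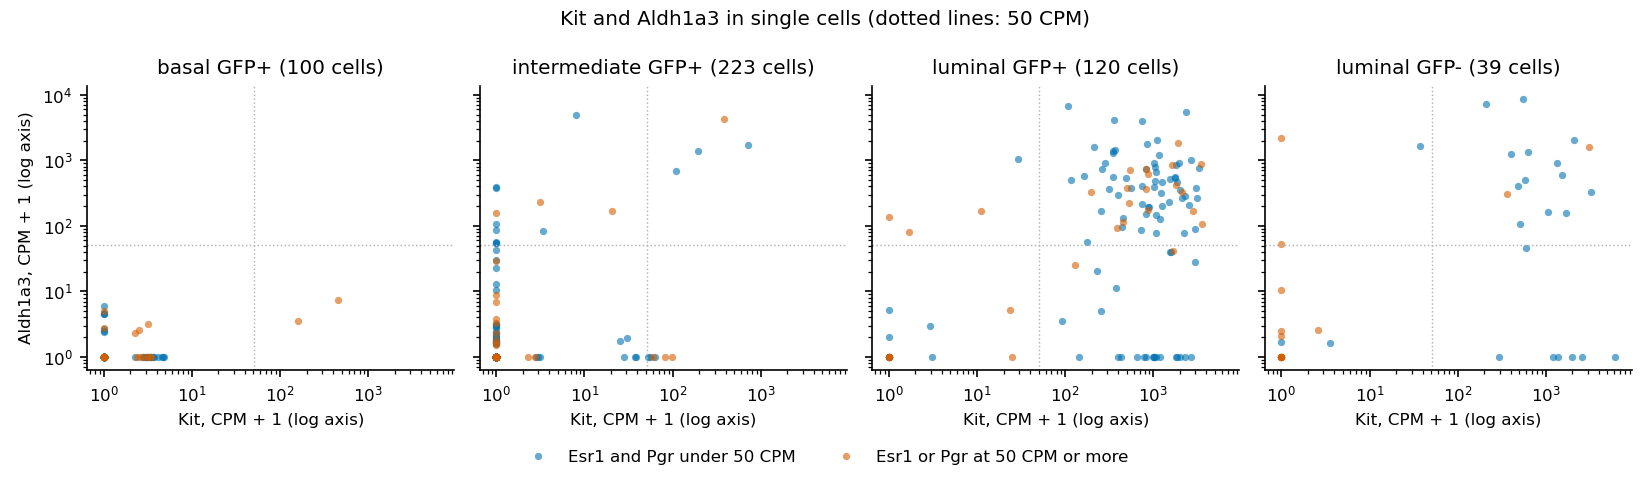
Kit (horizontal) and Aldh1a3 (vertical) in each kept basal GFP+, intermediate GFP+, luminal GFP+ and luminal GFP- cell, both as CPM + 1 on logarithmic axes, with dotted lines at 50 CPM and color for cells with 50 CPM or more of Esr1 or Pgr. Most luminal GFP+ cells sit above both lines, and 22 intermediate and 2 basal GFP+ cells pass either line.

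Salivary gland genes, which mark cells of another gland caught in the sort, were read on plate 1, where Kit was found in the fewest luminal GFP+ cells (2 of 8). The list, 9 of whose 10 genes were in the files, summed to 36886 CPM there with 6 of them read and Dcpp2, Dcpp3 and Smgc at 0, against 0 to 452 CPM on the other plates with a luminal GFP+ sum. A single luminal GFP+ cell of plate 1 had 1000 CPM or more of it. Without that cell Kit was found in 2 of 7 cells at 283.98 CPM, near the 253.8 CPM with it. Plates 2 and 3 each held 1 such luminal GFP+ cell, and plate 3 also 1 of its 3 luminal GFP- cells. Kit, Aldh1a3 and Cytip were detected in each of these. Without them Kit on plate 3 was at 813 CPM in luminal GFP+ and 899 CPM in luminal GFP- cells. Cytip in the luminal GFP- cells of plate 3 fell from 130.1 to 1.08 CPM. The other luminal GFP+ cell of plate 2 had no Kit or Aldh1a3. The leukocyte list summed to at most 5.41 CPM in luminal GFP+ cells, the mast cell list (2 of 6 genes found), relevant because mast cells depend on Kit, to 0, the melanocyte list to at most 9.93 CPM and the cartilage list to at most 47.6 CPM.

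Luminal cells were also split at 50 CPM of Esr1 or Pgr, a value chosen after the data were seen, because single reads of these receptors also occurred in basal cells. In luminal GFP- cells Kit was detected in 2 of 15 receptor cells and in 22 of 24 others, Aldh1a3 in 5 of 15 and 15 of 24, and Cytip in 1 of 15 and 16 of 24. In luminal GFP+ cells the split was weak for Kit, in 21 of 28 receptor cells and 83 of 92 others, and absent for Aldh1a3, in 23 of 28 and 66 of 92. The receptor cells of the 2 groups were not alike: the median of the higher receptor was 419 CPM in GFP- and 156.7 CPM in GFP+ cells, 15 GFP+ and 2 GFP- cells lay between 25 and 100 CPM, and 28 of 100 basal GFP+ cells also passed the cut. The split is a range of receptor level and no cell type, and it was not tested. The luminal GFP- cells of plates 1, 3, 4 and 5 had been annotated as estrogen receptor-negative, and 5 of those 22 cells passed the cut.

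Outside the luminal gate, 26 cells had 50 CPM or more of Kit or Aldh1a3. Of these, 22 were intermediate GFP+ cells: 12 had Aldh1a3 alone, 6 Kit alone and 4 both. Of the 4 with both, 3 came from plate L, with Kit at 194.4, 380.3 and 712.5 CPM and Aldh1a3 at 1394, 4242 and 1694 CPM, and in each of them the luminal keratin Krt8 exceeded Krt14. The 12 cells with Aldh1a3 alone looked otherwise, with a median of 1909 CPM of Krt14 and 237.8 CPM of Krt8, and 2 of them had more Krt8 than Krt14. Both basal GFP+ cells came from plate 1, with 158.7 and 454 CPM of Kit, and both had more Krt8 than Krt14. The 2 basal GFP- cells, with 79.9 and 103.7 CPM of Kit, came from plate L.

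Cpe split the intermediate gate by plate. Intermediate GFP+ sums were at 498 CPM on plate E, 826 on plate G and 238.1 on plate L, and at 0, 0, 0.169 and 15.2 CPM on plates 1, 2, 3 and 4, so batch 3 lay wholly above batches 1 and 2. Thinned cells gave the same picture, with 78 cells in batch 3 (42.4%, 35.2 to 49.9%) and 1 of 39 in the others (2.56%, 0.0649 to 13.5%). Plate E shares its Cre line and chase with plates 2 and 3, which had 0 and 0.169 CPM, so these plates differ in batch, depth and mice, which cannot be told apart, and not in their Cre line and chase labels. Intermediate GFP- cells, measured on batch 3 plates alone, had Cpe as well, at 1034 CPM on plate G and 224.5 on plate L, found in 7 of 12 cells. Luminal GFP+ sums ran from 0.580 to 84.4 CPM, the highest being plate 5, where 10 of 37 cells had 50 CPM or more. High Cpe in batch 3 was not confined to the intermediate gate. Basal GFP+ sums of the K5Cre plates were at 2.03 to 377.7 CPM, and basal GFP- sums at 0.264 to 204.6 CPM. Luminal GFP- cells were at 260.9 CPM on plate L, above its intermediate GFP+ cells, at 0.469 on plate E and at 0 on plate G.

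Within batch 3, the 69 intermediate GFP+ cells with 50 CPM or more of Cpe had medians of 3408 CPM of Krt14, 1467 of Krt5 and 58.4 of Krt8, against 2398, 286.2 and 333 CPM in the cells below. Their Plet1 was also higher, at 1507 against 377 CPM, and Kit and Aldh1a3 had medians of 0 in both. These are medians over cells of 3 plates, given without a test. Krt79, a keratin of hair follicle and sebaceous ducts and 1 of 6 genes of a skin and sebaceous list, moved with Cpe here. It was at 50 CPM or more in 45 of the 69 cells with Cpe (65.2%) and in 24 of the cells below (20.9%), and the summed list had medians of 254.1 and 2.1 CPM. Krt79 alone had medians of 253.4 and 0 CPM, so in the cells with Cpe the list sum was almost wholly this gene. Over all intermediate GFP+ cells Krt79 was at 508.8 CPM and the other genes of the list at 0.311 to 9.77 CPM. By plate the list summed to 371 to 776 CPM in intermediate GFP+ cells of batch 3, with 5 or 6 genes read, and to 4.23 to 243.3 CPM in those of batches 1 and 2, with 1 to 3 genes read and Krtdap, a gene of differentiating epidermis, at 0 on all 4 plates. The batch 3 sums held more and deeper cells, so the numbers of genes read cannot be compared. None of the 7 intermediate GFP- cells with Cpe had 50 CPM of Krt79. Its part in the Cpe levels was not tested. Luminal cells with Cpe differed from this: the 13 luminal GFP+ cells of batches 1 and 2 with 50 CPM or more had a median of 1521 CPM of Kit and 5.45 of Krt14.

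**Figure D5:**
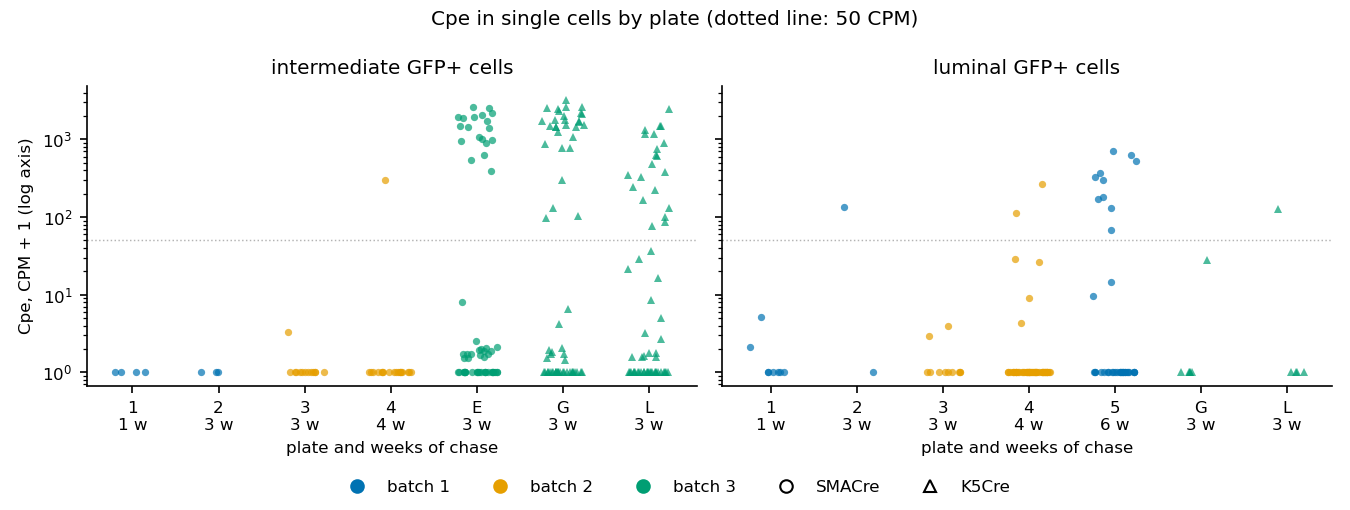
Cpe in each intermediate and luminal GFP+ cell by plate and weeks of chase, as CPM + 1 on a logarithmic axis, with a dotted line at 50 CPM, color for the batch and shape for the Cre line. Cells with Cpe are frequent in the intermediate gate of plates E, G and L and rare in that of plates 1, 2, 3 and 4, and in the luminal gate of plates with at least 3 cells they are most frequent on plate 5.

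Over the 29 sums, the 5 genes whose log2(CPM + 1) followed Kit most closely, among 12008 genes with 10 CPM in at least 3 sums, were Atp6v1b1 (Pearson r = 0.92), Erbb4 (0.90), Btn1a1 (0.90), Muc20 (0.90) and Ntn1 (0.89). Cytip came at rank 6 (0.88) and Aldh1a3 at rank 23 (0.83). Aldh1a3 was followed most closely by Spint1 (0.89), Basp1 (0.88), Cgn (0.86), Pkp2 (0.86) and Ptpn18 (0.85), with Kit at rank 11. Plet1 correlated with Kit at 0.67 and Cpe at -0.23. The genes closest to Cpe, named after their values were seen, were Slco2b1 (0.81), Fmo5 (0.80) and Alox12e (0.79). The sums share plates, batches and depth, and gates of opposite level set much of each r.

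Genes that work with these 6 are set beside the share of all genes called, 0.744% between luminal and basal GFP+ cells, and with 0 or 1 call a list do not stand apart from it. Of 20 genes of Kit signaling, among them the ligand gene Kitl and the adaptors Grb2 and Gab2, all 20 were tested and 0 passed in any of the 4 comparisons. Their median difference between luminal and basal GFP+ cells was -0.06 on the log2 scale, beside -0.03 for all genes. Of 22 genes of retinoid metabolism 21 were tested, with a median of -1.36, and 1 passed: Adh1, an alcohol dehydrogenase that can oxidise retinol, fell by 11.41 (SE 2.7, edgeR adjusted p = 0.0499). None of the 21 passed in the other 3 comparisons. Of the 11 genes of peptide processing, where Cpe belongs, 4 were tested, and of the 7 genes of cytohesin and ARF signaling 7, and 0 of either list passed in any comparison. Among 10 HRneg luminal markers 3 rose in luminal against basal GFP+ cells (Ltf, Wfdc18 and Basp1), with a median of 6.36 over the list, and Wfdc18 alone rose against intermediate GFP+ cells. Of 9 HRpos markers tested 1 rose against basal cells (Cited1), with a median of 4.06 over the list, and of 10 basal markers 5 fell, with a median of -5.90.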

How the data were processed

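Single cells were sorted by FACS and processed by the Smart-seq2 method. The authors deposited raw counts of reads per gene and cell; per the submitters' processing notes, Trim Galore 0.6.5, STAR 2.7.7a (alignment to GRCm38) and HTSeq 0.13.5 (counting) were used, single-end in batches 1 and 2 and paired-end in batch 3. Whether strand was used in counting is not given in the sources used here. Cells were kept with at least 100000 reads, 1400 genes, at most 10% mitochondrial reads, at least 2 reads of Epcam and at most 1 of Dcpp1. The repeat run of the 6-week plate was left out, and doublets were excluded in the sort alone.

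Counts were summed by gate, GFP state and plate (at least 3 cells; the single sum of plate 2 entered no fit) and tested in 1 fit with edgeR 4.0.16 (quasi-likelihood, TMM, filterByExpr, plate as block) on R 4.3.3, with Benjamini-Hochberg adjustment over 19768 genes. Shares of cells were compared by exact sign flips over plates, adjusted over 24 tests of single genes and over 4 of both genes. Scripts were tested on simulated data. DESeq2 1.42.0 and limma 3.58.1 were alternatives. The 6 genes and all gene lists were chosen with earlier results of these data known. Named were the 6 genes, the 5 genes most like Kit and Aldh1a3 by correlation, genes of the pathway lists past the threshold, and markers beside a result they touch; the cells with 50 CPM or more and the receptor split were chosen after values were seen. Intervals cover counting error only.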

Additional observations from a re-analysis of the deposited data

Results flagged for a closer look

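Of 52 sets of plate values (1 gene or pair, 1 group), 10 held a plate far from the rest by Dixon's test. Chance alone flags about 5% of sets of normally distributed values. Where all other plates stood at 0 or at 100%, any plate that differs is flagged, so the 10 cannot be set against that rate. Plate 1 accounted for 7 of the 10. Among basal GFP+ sums it held Kit at 11.6 CPM (others 0 to 0.608) and Cytip at 1.62 CPM (others 0 to 0.206), with Cytip in 4% of cells, Cnmd in 6% and both Kit and Aldh1a3 in 2%, where the other plates had 0. It was also the plate with the most basal GFP+ cells, 50. In its 8 luminal GFP+ cells both Kit and Aldh1a3 were found in 25% (others 66.7 to 90.9%), and in its 4 intermediate GFP+ cells Plet1 was at 4.58 CPM (others 151.7 to 1613). Elsewhere, Cpe was found in 40% of the 5 basal GFP+ cells of plate G (others 0 to 6%), Cnmd was at 70.04 CPM in intermediate GFP+ cells of plate 3 (others 0 to 3.10), and Plet1 was found in 80% of the 5 luminal GFP- cells of plate E (others 100%). Causes were not tested.

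The repeat run of the 6-week plate entered no comparison. In 43 cells kept in both runs it gave 1679 CPM of Kit (1700 in the first run), 401 of Aldh1a3 (415), 5064 of Plet1 (5242), 170 of Cnmd (176.1), 564 of Cytip (568) and 69.1 of Cpe (69.9). Kit was detected in both runs in 41 cells and in neither in 2, and each of the 43 cells was closest to its own index pair.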

How the results depend on the processing

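The share of genes called depended strongly on the method, while the luminal excess of Kit, Aldh1a3, Cnmd and Cytip over basal and intermediate GFP+ cells kept its direction under every alternative run. Shares of the genes tested are given in the order luminal against basal GFP+, luminal against intermediate GFP+, intermediate against basal GFP+ and luminal GFP+ against GFP-, where the reported values are 0.744, 0.157, 0 and 0.0354%. DESeq2 called 8.82, 5.95, 2.1 and 6.16% of genes (1743, 1176, 415 and 1218), limma with sample weights 4.43, 2.53, 0.0455 and 0.121%, and edgeR without a filter on low counts 1.85, 1.15, 0.199 and 0.484%. Sums of at least 5 cells gave 1.13 and 0.388% in the first 2 comparisons, keeping cells without the Epcam and Dcpp1 filter 1.44 and 0.371%, and thinned cells 3.09 and 1.18%, with 0.00865% in the last. With no replicate block (the plate left out of the model) the second share was 0.293%. Fitting the compared groups alone gave 0.562, 0 and 0% in the first, second and last comparison, batch 3 alone 0.0778, 0.0445 and 0%, and batches 1 and 2 alone 0.153, 0.0418 and 0% (the batch splits were added after the data were seen). Leaving out 1 plate at a time gave 0.198 (without plate 3) to 0.635%, 0.0507 (without plate 3) to 0.183%, 0%, and 0 (without plate 3, 4 or E) to 0.0508%. Without the Epcam and Dcpp1 filter the differences in cells with both Kit and Aldh1a3 were 56.2 points against basal and 54.0045 against intermediate GFP+ cells, both with exact permutation p = 0.03125 on 6 plates.

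Reversed signs were confined, among the results run, to values that had not passed in the reported edgeR fit or sign-flip tests. Some of these had passed in an alternative fit. They were Cpe in luminal against basal and against intermediate GFP+ cells, and Plet1 and Cytip between intermediate and basal GFP+ cells. The Kit difference between luminal GFP+ and GFP- cells became -0.054 with DESeq2, -0.19 with thinned cells, -0.17 with the compared groups alone, -0.52 in batches 1 and 2, and -0.25 to 0.47 without 1 plate. The Cpe difference between intermediate and basal GFP+ cells became 1.12 with Cre line and chase as units, 0.34 with 5 cells, 5.32 with limma, 1.44 without the Epcam and Dcpp1 filter, 1.47 without block, 0.90 with the compared groups alone, 2.35 in batch 3, and -3.59 to 0.81 without 1 plate. Cpe between luminal and basal GFP+ cells became 1.02 with limma, between luminal and intermediate GFP+ cells 0.64 in batches 1 and 2, and between luminal GFP+ and GFP- cells -1.13 without block and -1.88 in batch 3. In batches 1 and 2 the differences between intermediate and basal GFP+ cells became -1.20 for Kit, -2.14 for Cytip and -0.18 for Plet1.

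Shares of cells between intermediate and basal GFP+ cells turned for Kit to 2.52 points with 2 reads as detected, 6.40 with thinning to 50000 reads, 8.58 without the Epcam and Dcpp1 filter, 5.66 in batch 3, and -3.15 to 2.49 without 1 plate. For Aldh1a3 they turned to -0.75 with 50000 reads, -2.98 without thinning, -0.91 without the Epcam and Dcpp1 filter, -0.10 in batches 1 and 2, and -2.30 to 2.79 without 1 plate; for Cytip to -0.32 with 50000 reads and -4.08 without thinning; and for Cpe to -1.83 in batches 1 and 2. The Cpe share between luminal and basal GFP+ cells turned to 1.79 points with Cre line and chase as units, 3.66 without the Epcam and Dcpp1 filter, and -6.07 to 4.76 without 1 plate, that between luminal and intermediate GFP+ cells to 1.51 in batches 1 and 2, and that between luminal GFP+ and GFP- cells to -0.47 to 5.53 without 1 plate. In the fit of the compared groups alone the filter on low counts removed Kit, Aldh1a3, Cnmd and Cytip between intermediate and basal GFP+ cells and Cnmd between luminal and basal GFP+ cells, so they have no value there. The causes were not tested. Groups of 3 to 8 cells on most plates and sums carried by 1 cell limit these values.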
